A study of Mus musculus with 4 samples.

Results

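Nuclear long noncoding RNAs and host genes of small nucleolar RNAs (snoRNAs) were read in sequenced cells enriched for diplotene spermatocytes, with and without TDRD6. The 10 genes chosen by name were Malat1, Neat1 and Meg3, which act in the nucleus, and the snoRNA hosts Gas5, Snhg1, Snhg3, Snhg5, Snhg6, Snhg8 and Snhg12. Of the 37718 gene rows in the count files, 9 held these genes: 8 were found by Ensembl ID, and the Snhg1 locus was found by its snoRNA genes, because its current ID was not among the rows. Snhg8 had no row and was not analysed here. The 4 libraries were 2 from Tdrd6+/- and 2 from Tdrd6-/- testes, all taken at 20 days post partum. In every library of either genotype the cells had been sorted with magnetic beads for human CD4, a marker that these mice express from the endogenous Tdrd6 promoter. The paper describes such preparations as mostly diplotene cells, and it also counted secondary spermatocytes and round spermatids in them. The controls were heterozygous for the Tdrd6 mutation, not wild type. Each library pooled at least 4 mice, so an n of 2 counts pools, and the p-values measure only the spread between these pools. Total RNA had been treated with DNase, depleted of ribosomal RNA and sequenced with a directional kit, without selection for poly(A) tails. Counts were compared between the genotypes for whole genes, deposited introns, exon segments and splice junctions.

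Malat1 is a long RNA of nuclear speckles, the bodies in which splicing factors gather. Neat1 is the scaffold of paraspeckles, nuclear bodies built by RNA-binding proteins such as SFPQ and NONO. Meg3 is a maternally expressed imprinted noncoding RNA. The Snhg genes and Gas5 are transcribed to be spliced: their introns carry snoRNAs, which are trimmed out of the excised introns and guide the modification of ribosomal RNA, while the spliced exons often have no known product. C/D snoRNAs carry a C box and a D box and guide 2'-O-methylation, and H/ACA snoRNAs end in an ACA box and guide pseudouridylation. Snora73, also known as U17 or E1, is an H/ACA snoRNA used in the processing of ribosomal RNA precursors rather than in pseudouridylation. Because snoRNA hosts release a stable product from an intron, the intron and the spliced exons of a host give different RNAs.

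The following sequences are those on which the results turn, read from the GENCODE M21 transcripts of GRCm38. The first pair are the snoRNAs of Snhg3 on chromosome 4, minus strand, shown because segments of Snora73a passed the usage test and Snora73b is its near copy. Snora73a lies at chr4:132352775-132352979 and Snora73b at chr4:132352322-132352526, both inside Snhg3, and 198 of their 205 positions are identical. Capitals mark the 7 positions that differ, so most fragments of either snoRNA can be assigned only where they cover such a position, and their separate counts are uncertain.
Snora73a: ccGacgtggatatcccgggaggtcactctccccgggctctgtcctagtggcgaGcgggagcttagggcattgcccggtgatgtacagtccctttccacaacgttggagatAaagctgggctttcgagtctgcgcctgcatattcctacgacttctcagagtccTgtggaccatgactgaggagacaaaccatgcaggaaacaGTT
Snora73b: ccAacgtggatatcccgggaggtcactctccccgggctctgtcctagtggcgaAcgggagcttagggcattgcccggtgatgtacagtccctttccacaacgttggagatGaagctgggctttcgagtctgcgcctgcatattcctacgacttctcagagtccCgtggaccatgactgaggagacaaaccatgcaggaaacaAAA

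The last 189 bases of the Snhg3 terminal exon, at chr4:132351933-132352121 on the minus strand, carried the largest fall among the member exon segments that passed the test. In the annotated isoform Snhg3-205 this stretch is spliced out, and the first 2 bases, in capitals, are the start of that intron.
Snhg3 terminal part: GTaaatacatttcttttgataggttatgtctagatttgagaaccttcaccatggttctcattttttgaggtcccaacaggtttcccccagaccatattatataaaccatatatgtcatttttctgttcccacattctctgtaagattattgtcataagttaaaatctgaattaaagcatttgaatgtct
The splice of Snhg3-205 that removes it, across chr4:132348121-132352121, joins the 30 bases in lower case to the 30 bases in capitals.
Snhg3-205 junction: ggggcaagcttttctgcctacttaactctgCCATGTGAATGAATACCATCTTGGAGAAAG

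Examples follow of the small RNA intervals that the deposited files count as introns. Snord99, a C/D snoRNA of Snhg12 at chr4:132310691-132310764 on the plus strand, and Gm22357, a C/D snoRNA of Gas5 at chr1:161036057-161036139 on the plus strand, are printed with the letters TGATGA of the C box and CTGA of the D box in capitals. On the RNA strand, TGATGA occurs in 26.1% and CTGA in 79.5% of the 1508 snoRNA transcripts in M21. Snora61, an H/ACA snoRNA of Snhg12 at chr4:132310240-132310369 on the plus strand, is printed with its ACA in capitals, which lies 3 bases before the end there and in 18.3% of those transcripts. Gm27694, a short annotated RNA within Malat1 at chr19:5799000-5799085 on the minus strand, has no letters marked.
Snord99: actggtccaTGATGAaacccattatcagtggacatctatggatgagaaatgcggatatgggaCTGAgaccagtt
Gm22357: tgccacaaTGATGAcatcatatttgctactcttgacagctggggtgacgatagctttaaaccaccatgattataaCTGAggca
Snora61: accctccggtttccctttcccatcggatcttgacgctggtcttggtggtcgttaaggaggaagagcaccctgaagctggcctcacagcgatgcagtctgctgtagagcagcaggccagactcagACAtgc
Gm27694: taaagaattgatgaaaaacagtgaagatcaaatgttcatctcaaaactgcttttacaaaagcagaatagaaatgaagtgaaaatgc

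The libraries held 26454326 to 31388750 gene counts and 9603669 to 13937818 intron counts. Tdrd6 itself was at 1253 and 1402 CPM (counts per 1000000 gene counts, scaled by TMM) in the Tdrd6+/- libraries and at 11.4 and 12.6 in the Tdrd6-/- libraries, as the labels have it. Spermatocyte markers were abundant: the 12 listed genes summed to 6925 to 8556 CPM, and 3 of them were higher and 1 lower in Tdrd6-/-. The 10 Sertoli markers summed to 94.3 and 94.5 CPM in Tdrd6+/- and to 113 and 125 in Tdrd6-/-, with none passing the test. The 6 round spermatid markers summed to 9.09 and 13.01 CPM in Tdrd6+/- and to 21.8 and 19.9 in Tdrd6-/-, and both that could be tested, Acrv1 and Spaca1, were higher. Leydig, myoid, macrophage and endothelial lists each summed to at most 22.2 CPM, and spermatogonial markers to 22.4 to 31.5. All intron counts per 100 gene counts came to 52.7 and 41.9 for the first and second Tdrd6+/- library, and to 42.5 and 30.6 for the first and second Tdrd6-/- library.

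For many of these genes, the deposited introns were not the gaps between exons. The files join overlapping genes into a single row (940 rows, of which 4 hold genes of both strands in M21), and 8 of the 9 member rows joined a host with other genes; only Snhg6 had a row of its own. Where the bases shared with an embedded small RNA were taken out of the exons before gaps were drawn, the number of gaps in M21 equalled the number of deposited introns for Gas5 (11), Snhg3 (4), Meg3 (10), Malat1 (1), Neat1 (3), Snhg6 (2) and Snhg12 (4). By that order, 9 of the 11 Gas5 introns coincide with its 9 snoRNA genes, the single Malat1 intron with Gm27694, and the 3 Neat1 introns with 3 short annotated RNAs. The counts bear this out directly. Of the 40 member introns with at least 10 counts, 23 had the count of an exon segment of the same gene in every library, to within 1 count, as in the Malat1 intron with 2326, 1902, 2676 and 1523 counts. Such an intron count is a count of fragments on a small RNA or exonic interval, and it repeats counts of an exon segment of the same row. No intron of Snhg3 or Snhg6 had such a match, and the Snhg6 introns are plain gaps.

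Of the 9 member rows, 1 passed the test of gene expression, Neat1, which was lower in Tdrd6-/- (quasi-likelihood test of edgeR, Benjamini-Hochberg adjusted, false discovery rate 0.1). Across all 16555 tested genes, 4.8% passed, and 3.78% passed as lower. The median log2 fold change of the members was -0.05, and that of all tested genes 0.01. In the plot of CPM by library, Malat1 stands far above every other row, and Snhg6 and Meg3 lie lowest.

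**Figure D1:**
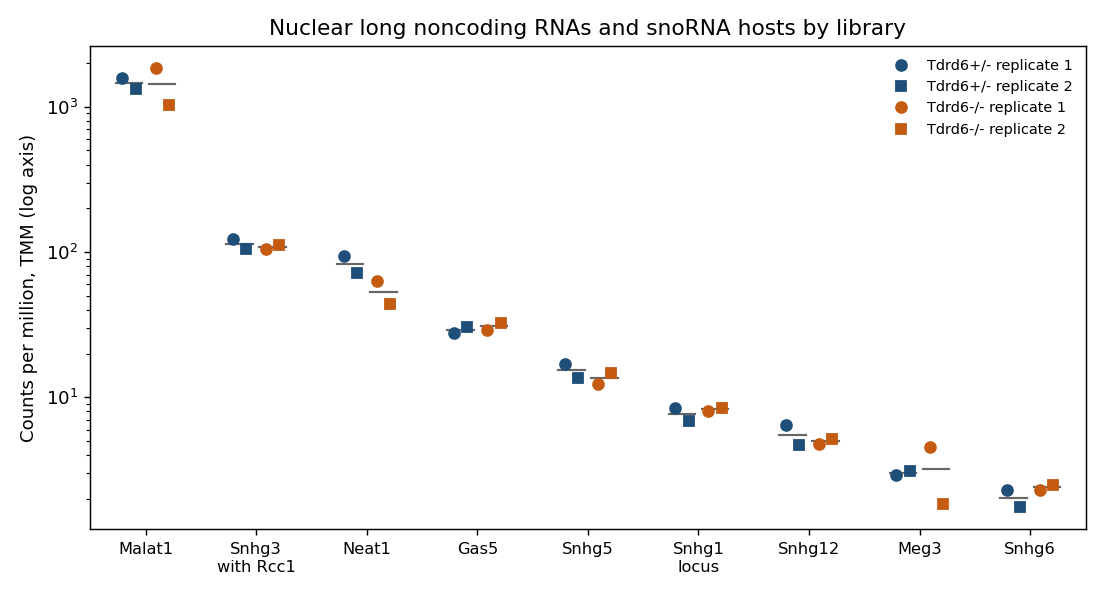
CPM after TMM scaling (log axis) for the 9 member rows, with a point for each library (circles replicate 1, squares replicate 2) and a bar at each genotype mean (n = 2). Neat1 is the row whose genotypes were told apart by the test; Malat1 and Meg3 differ mainly between the Tdrd6-/- libraries.

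Malat1 (ENSMUSG00000092341, chromosome 19, 5795690 to 5802672, minus strand) was the most abundant member. It reached 1589 and 1325 CPM in Tdrd6+/- and 1850 and 1022 CPM in Tdrd6-/-. The Tdrd6-/- libraries lay above and below both Tdrd6+/- libraries, so the genotypes overlapped. The log2 fold change was -0.05 ± 0.19 (SE; edgeR adjusted p = 0.951). Its sign turned under other scalings, which raised the median of all tested genes as well. Per kilobase of exon annotated in M21 the mean over 4 libraries was 207 CPM per kb. No Malat1 exon segment passed the usage test, which asks whether a feature takes a different share of its gene. The smallest adjusted p was 0.634 (DESeq2 likelihood ratio test), for segment E013 with 467 and 439 counts in Tdrd6+/- and 758 and 559 in Tdrd6-/-. Few fragments crossed a Malat1 junction, and the most used, J022, had 5, 3, 9 and 2 counts.

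Neat1 (ENSMUSG00000092274, chromosome 19, 5824708 to 5845478, minus strand) fell 1.57-fold. It was at 93.2 and 71.3 CPM in Tdrd6+/- and at 63.0 and 43.7 CPM in Tdrd6-/-, so the genotypes did not overlap, although the gap between them was smaller than the gap within either. The log2 fold change was -0.65 ± 0.17 (SE; edgeR adjusted p = 0.0355). In both genotypes replicate 2 was lower, as were the intron counts of the whole library. Per 1000000 intron counts, Neat1 was at 177 and 163 in Tdrd6+/- and at 153 and 144 in Tdrd6-/-. With intron totals as library sizes the log2 fold change was -0.20 (edgeR adjusted p = 0.719). That scaling moved all genes: the median log2 fold change over all tested genes was 0.49, against 0.01 in the main fit. Between Tdrd6+/- replicate 2 and Tdrd6-/- replicate 1, whose intron counts per gene count were nearly equal, Neat1 was at 71.3 and 63.0 CPM. Whether the intron content of the libraries had a part in the fall was not tested beyond these values. In bulk RNA, fewer cells with Neat1 and less Neat1 per cell cannot be told apart. The call was lost without Tdrd6+/- replicate 1 (log2 -0.43, edgeR adjusted p = 0.319) and without Tdrd6-/- replicate 2 (log2 -0.40, edgeR adjusted p = 0.668).

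All 17 Neat1 exon segments had counts, and none passed the usage test, and the smallest adjusted p was 1. The segment with the highest counts, E001, had 994 and 780 counts in Tdrd6+/- and 863 and 503 in Tdrd6-/-. Of the 3 intervals counted as introns, the second, at the short RNA Gm27505, had the highest counts, with 170 and 147 in Tdrd6+/- and 116 and 98 in Tdrd6-/-, and its usage did not pass (log2 -0.18, DESeq2 adjusted p = 0.916). The summed intervals per 100 gene counts were 16.1 and 16.9 in Tdrd6+/- and 16.0 and 16.0 in Tdrd6-/-. Both Tdrd6-/- shares lay just below both Tdrd6+/- shares.

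Sfpq and Nono, the paired proteins that coat Neat1, did not pass the test of gene expression. Sfpq was at 230 and 209 CPM in Tdrd6+/- and at 209.6 and 176 CPM in Tdrd6-/-, with overlap (log2 -0.21 ± 0.13 SE, edgeR adjusted p = 0.531). Nono was at 6.60 and 6.31 CPM against 7.76 and 8.94, and both Tdrd6-/- values were the higher (log2 0.35 ± 0.22 SE, edgeR adjusted p = 0.549).

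**Figure D2:**
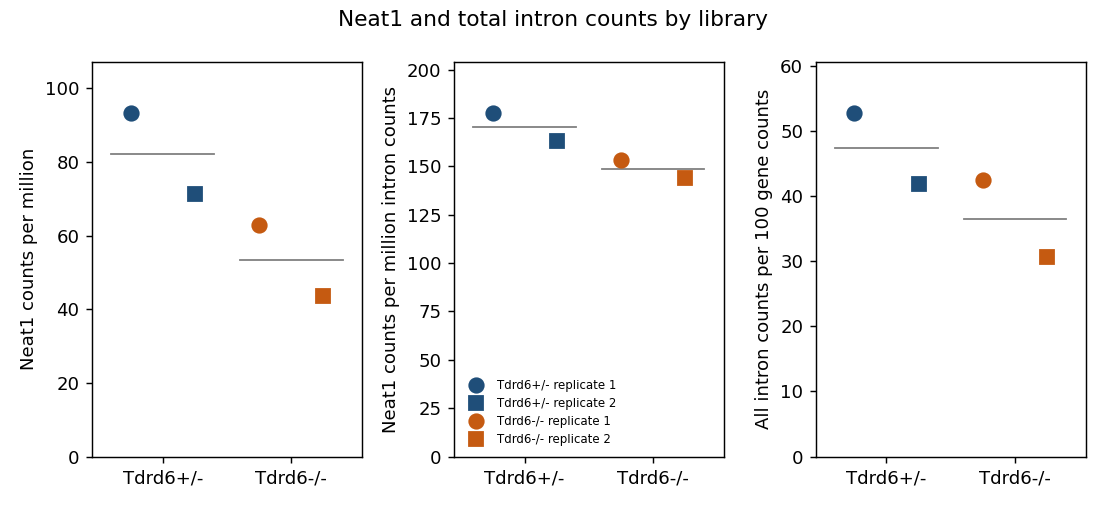
Values of the 4 libraries (circles replicate 1, squares replicate 2; bars are genotype means, n = 2) for Neat1 in CPM, Neat1 per 1000000 intron counts, and all intron counts per 100 gene counts. Neat1 is lower in both Tdrd6-/- libraries on either scale, and the intron content is lower in replicate 2 of each genotype.

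Among 9 nuclear speckle proteins, 3 were lower in Tdrd6-/-. Srrm2, which builds speckles together with Son, was at 585 and 692 CPM in Tdrd6+/- and at 374 and 287 CPM in Tdrd6-/- (log2 -0.98 ± 0.14 SE, edgeR adjusted p = 0.000274). Srrm1, a splicing coactivator, was at 126 and 121 CPM against 76.8 and 62.7 (log2 -0.85 ± 0.14 SE, edgeR adjusted p = 0.000859). Son gave -0.51 ± 0.13 (SE; edgeR adjusted p = 0.0356). The SR proteins Srsf1, Srsf2 and Srsf3 were among the 6 that did not pass. For each of the genes that passed, both Tdrd6-/- libraries were below both Tdrd6+/- libraries. Of 10 other nuclear long noncoding RNAs with a row, 1 passed: Tug1 was at 161 and 185 CPM in Tdrd6+/- and at 133 and 103 CPM in Tdrd6-/- (log2 -0.57 ± 0.14 SE, edgeR adjusted p = 0.0262). As for Neat1, Tdrd6-/- replicate 2, the library with the fewest intron counts, was the lowest for each of these 4 genes.

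Meg3 (ENSMUSG00000021268, chromosome 12, 109541001 to 109571726, plus strand) was at 2.94 and 3.14 CPM in Tdrd6+/- and at 4.55 and 1.83 CPM in Tdrd6-/-. The Tdrd6-/- libraries enclosed the Tdrd6+/- libraries, and the log2 fold change was 0.04 ± 0.34 (SE; edgeR adjusted p = 0.976). Without Tdrd6-/- replicate 1 it was -0.76 (edgeR adjusted p = 0.377). Per length Meg3 was the lowest member, at 0.172 CPM per kb. Its interval of the highest counts, intron 006 of 2614 bases, had 43 and 61 counts in Tdrd6+/- and 56 and 29 in Tdrd6-/-, too few for an adjusted p. The microRNA genes that share its row gave next to nothing: the interval of Mir770 had 1 count in all, and that of Mir1906-1 had 7, 3, 7 and 6.

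No snoRNA host passed the test of gene expression. Gas5 (ENSMUSG00000053332, chromosome 1, 161034422 to 161038539, plus strand), whose introns carry 9 snoRNA genes of the row, was at 27.7 and 30.6 CPM in Tdrd6+/- and at 29 and 32.7 in Tdrd6-/- (log2 0.06 ± 0.16 SE, edgeR adjusted p = 0.930). The Snhg1 locus was at 8.45 and 6.84 CPM against 8.11 and 8.43 (log2 0.09 ± 0.22 SE, edgeR adjusted p = 0.916). Snhg5 was at 17.0 and 13.7 CPM against 12.3 and 14.7 (log2 -0.21 ± 0.20 SE, edgeR adjusted p = 0.728). In each of these hosts the genotypes overlapped.

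Snhg6 was at 2.30 and 1.75 CPM in Tdrd6+/- and at 2.32 and 2.49 in Tdrd6-/- (log2 0.23 ± 0.31 SE, edgeR adjusted p = 0.832). Its Tdrd6-/- values were the higher pair, by a far smaller gap than that within Tdrd6+/-. Snhg12 was at 6.41 and 4.67 CPM against 4.802 and 5.21, with overlap (log2 -0.17 ± 0.25 SE, edgeR adjusted p = 0.847). The row of Snhg3 (ENSMUSG00000085241, chromosome 4, 132348014 to 132353686, minus strand), which also holds the protein-coding gene Rcc1, was at 124 and 105 CPM against 105 and 112, with overlap (log2 -0.10 ± 0.14 SE, edgeR adjusted p = 0.826).

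Per kilobase, where an annotated length was at hand, the order after Malat1 was Snhg3 with Rcc1 (23.5 CPM per kb), Snhg5 (8.33), Gas5 (7.97), Neat1 (3.27), Snhg12 (2.20), Snhg6 (1.93) and Meg3. The ranges over the libraries overlapped for Snhg5 and Gas5, which were 7.09 to 9.81 and 7.36 to 8.68, and for Snhg12 and Snhg6, which were 1.94 to 2.67 and 1.52 to 2.18. Neat1, at 2.10 to 4.49, also overlapped Snhg12. The other neighbours in this order were separate in all 4 libraries. The Snhg1 row has no length here, because an ID in it is absent from M21. Lengths are those of M21, whereas the counts were made on an earlier annotation. For Malat1, Neat1 and Snhg12 the files hold 18, 17 and 22 exon segments, and M21 gives 14, 23 and 26. The values per length of these genes are therefore approximate.

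The clearest change among the members was inside Snhg3. Of 352 member exon segments and junctions, 124 received an adjusted p in the usage test, and 5 passed at a false discovery rate of 0.1, all in the joined Snhg3 and Rcc1 row. Across all 159541 features with an adjusted p, 0.251% passed, 0.0903% as lower and 0.161% as higher in Tdrd6-/-. A fragment can cover neighbouring segments, so the 5 are not independent. Of these, 3 neighbouring segments of the Snhg3 terminal exon were lower and 2 neighbouring segments of Snora73a were higher. Segment and junction numbers of this row could be placed because M21 has the same 40 segments and 20 junctions.

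The terminal part of Snhg3 was lower in Tdrd6-/-. Segment E028 (132352004 to 132352121, the 118 bases that begin the printed terminal sequence) had 453 and 350 counts in Tdrd6+/- and 226 and 233 in Tdrd6-/-. That was 17.1 and 12.5 CPM against 7.19 and 7.36, with no overlap. Its usage changed by a log2 of -1.04 ± 0.16 (SE; DESeq2 likelihood ratio test, adjusted p = 3.49e-07). Segment E027, the next 70 bases towards the end, had 178 and 124 counts against 75 and 69 (log2 -1.23 ± 0.24 SE, DESeq2 adjusted p = 0.000599). Segment E029, the 122 bases of the same exon that Snhg3-205 keeps, had 621 and 535 counts against 430 and 450 (log2 -0.63 ± 0.13 SE, DESeq2 adjusted p = 0.00267). The estimated fall was larger towards the end of the exon; the differences between these estimates were not tested in the model.

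Per 100 fragments on E029, E028 held 72.95 and 65.4 in Tdrd6+/- and 52.6 and 51.8 in Tdrd6-/-. The groups did not overlap, and the exact permutation test of 2 against 2 gave its smallest possible p, 0.33 (two-sided). E031, 17 bases of the exon before, which all 5 annotated Snhg3 isoforms share, was at 10.52 and 8.66 CPM against 8.74 and 7.61 and did not pass (log2 usage -0.17, DESeq2 adjusted p = 1). The Rcc1 segment with the highest counts, E002, was at 30.6 and 25.3 CPM against 23.3 and 25.6 and did not pass either. The splice into the terminal exon, J058, was the most used Snhg3 junction and had 188 and 167 counts against 168 and 157 (DESeq2 adjusted p = 1). Further upstream, other Snhg3 features had lower values in both Tdrd6-/- libraries without passing. The splice J060, which 3 Snhg3 isoforms share with an Rcc1 isoform, had 104 and 104 counts against 80 and 76 (log2 -0.57 ± 0.24 SE, DESeq2 adjusted p = 0.835), and the first-exon segments E038 and E039 gave log2 usage changes of -0.43 and -0.49 (DESeq2 adjusted p = 1 for both). The fall was therefore not shown to be particular to the terminal exon.

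Fragments that leave Snhg3 by the other splice had higher values in Tdrd6-/-. J055, the Snhg3-205 junction printed above, had 4 and 9 counts in Tdrd6+/- and 15 and 21 in Tdrd6-/-, with no overlap. Its log2 usage change was 1.34 ± 0.69 (SE), and it was too rare for an adjusted p with DESeq2. The change was 0.77 without Tdrd6+/- replicate 1 and 2.11 without Tdrd6+/- replicate 2. Per 100 counts of J058 it was 2.13 and 5.39 against 8.93 and 13.4. The exon it reaches, E024, had 15 and 37 counts against 45 and 51. From there, J053 joins Rcc1 exons and had 5 and 5 counts against 24 and 23 (log2 2.10 ± 0.66 SE), also without an adjusted p. Of the 3 splices into the same Rcc1 exon, J051, J052 and J053, J053 took 14.3% and 12.8% in Tdrd6+/- and 41.4% and 46.9% in Tdrd6-/-. E024, E031, E032, E038, E039, J053 and J055 were singled out after their values were seen.

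**Figure D3:**
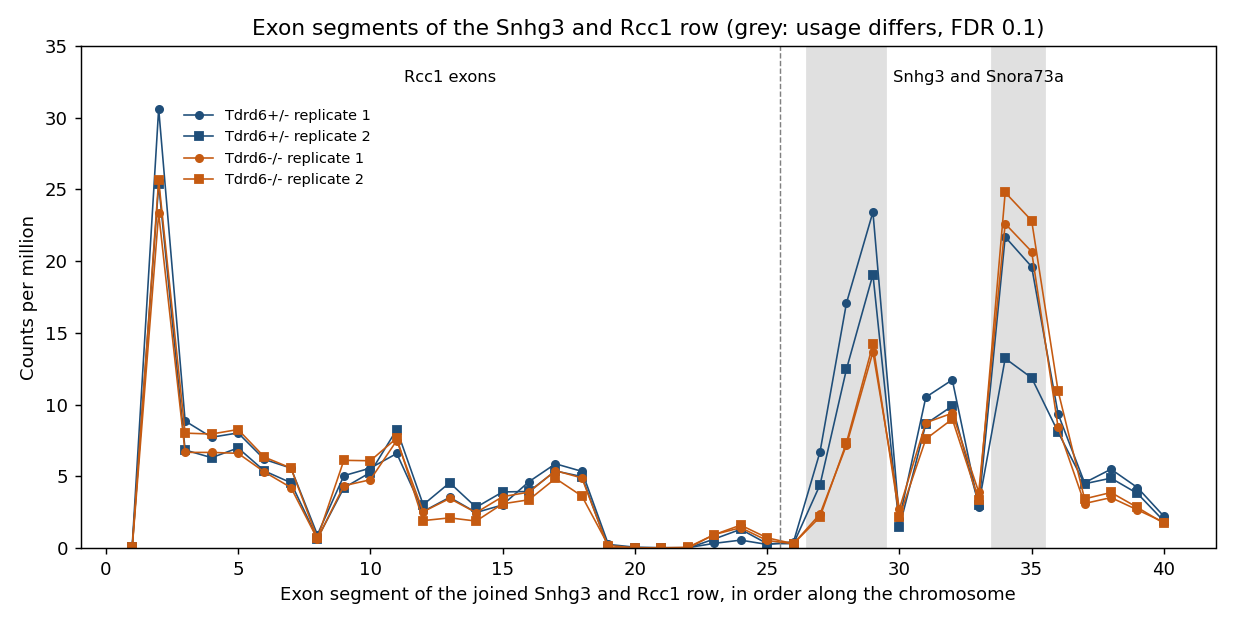
CPM of the 40 exon segments of the joined Snhg3 and Rcc1 row, in chromosome order, for the 4 libraries; both genes lie on the minus strand, so they are transcribed from right to left. Grey bands mark the 5 segments that passed the usage test: E027 to E029 are lower in both Tdrd6-/- libraries, and E034 and E035, on Snora73a, are lowest in Tdrd6+/- replicate 2.

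The Snora73a segments rose in share. E035 (132352934 to 132352979, the first 46 bases of the snoRNA) had 520 and 333 counts in Tdrd6+/- and 650 and 723 in Tdrd6-/-. That was 19.6 and 11.9 CPM against 20.7 and 22.8, so the groups were apart by about 1 CPM and Tdrd6+/- replicate 2 stood low. The log2 usage change was 0.68 ± 0.16 (SE; DESeq2 adjusted p = 0.0185). E034, the remaining 159 bases, had 575 and 371 counts against 711 and 785 (log2 0.67 ± 0.16 SE, DESeq2 adjusted p = 0.0278). Snora73b, the near copy with a row of its own, was at 13.05 and 11.8 CPM against 12.9 and 12.4, with overlap. Set against the Snhg3 exon segment E032 it was 111 and 119 per 100 in Tdrd6+/- and 137 and 138 in Tdrd6-/-, while E035 was 167 and 120 against 220 and 254.

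Of the 5 calls, that of E028 held in each of the 9 alternatives that fitted the row, with adjusted p from 2.96e-07 to 0.0542 (DESeq2 or edgeR). The other 4 calls depended on single libraries. Those of E029, E034 and E035 were also lost on all 4 libraries with another usage test, edgeR's diffSpliceDGE (log2 -0.50, 0.55 and 0.57). E034 and E035 lost theirs without Tdrd6+/- replicate 2 (adjusted p = 0.477 and 0.449, DESeq2), without Tdrd6-/- replicate 1 (0.441 and 0.302) and without Tdrd6-/- replicate 2 (1 and 1). E027 lost its call without Tdrd6+/- replicate 1 (0.422) and without Tdrd6-/- replicate 2 (0.39), and E029 without either of these (0.326 and 0.905) and without Tdrd6-/- replicate 1 (0.186). Between Tdrd6+/- replicate 2 and Tdrd6-/- replicate 1, the pair of nearly equal intron content, E028 was at 12.5 and 7.19 CPM.

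**Figure D4:**
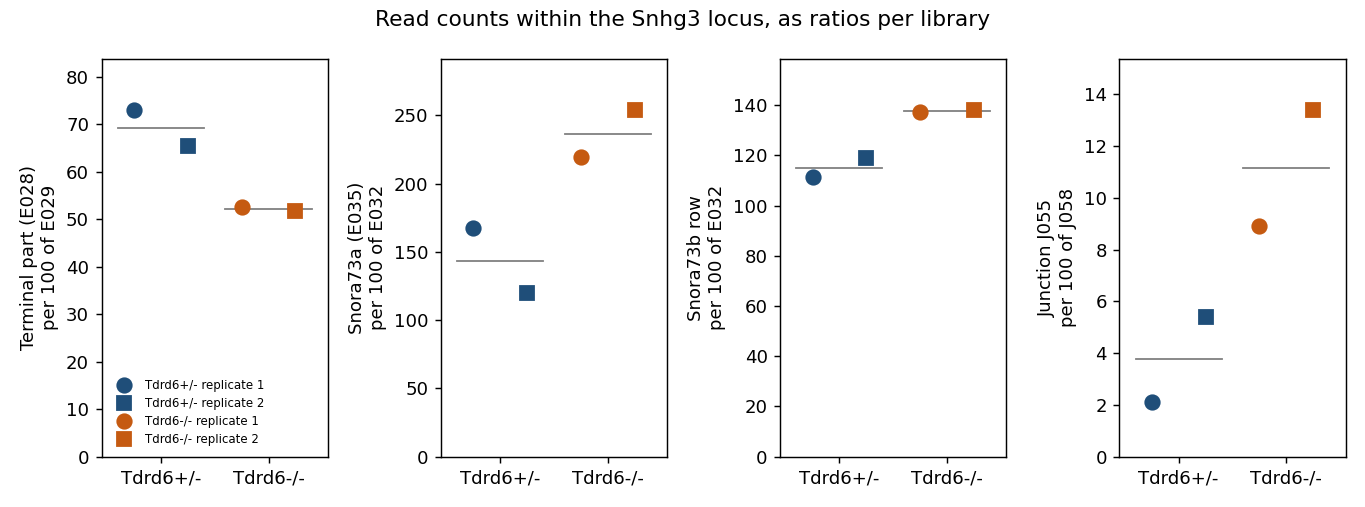
Ratios of counts within the Snhg3 locus for each library (circles replicate 1, squares replicate 2; bars are genotype means, n = 2): terminal segment E028 per 100 of E029, Snora73a segment E035 and the Snora73b row per 100 of exon segment E032, and junction J055 per 100 of junction J058. In each panel the Tdrd6-/- libraries lie on 1 side of the Tdrd6+/- libraries, with E028 lower and the other ratios higher.

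Outside the Snhg3 row, 0 of the 86 member segments and junctions with an adjusted p passed in the DESeq2 test, and edgeR's diffSpliceDGE called none there either. Of the 243 fitted there, 9 had an unadjusted p under 0.05. The most used junctions had few counts in most hosts. Gas5 had the highest: its junction J087 had 81 and 145 counts in Tdrd6+/- and 136 and 154 in Tdrd6-/- (log2 usage 0.11, DESeq2 adjusted p = 1). Snhg5 had 57 and 46 against 41 and 61 counts at J024, and Snhg12 had 32 and 36 against 21 and 26 at J026. The Snhg1 locus had 36 and 17 against 23 and 38 at J030, its highest annotated junction, and 29 and 28 against 24 and 42 at the unannotated N034. Snhg6 had 13 and 12 against 20 and 23 at J015. For Meg3 and Neat1 the most used junctions, J056 and J018, had at most 9 counts in a library. Segment E020 of Snhg12 had the smallest adjusted p of these hosts, 0.860 (DESeq2), with 76 and 59 counts against 46 and 56.

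The intron to exon ratio compares the summed intron counts of a gene with its gene count, each scaled within its own kind. The 23 of 40 member introns that repeat an exon segment of their row are also within the gene count. For these the ratio sets a part against the whole and does not separate intronic from exonic RNA. The Snhg3 interval that holds Snora73a has no such match. Snora73a is joined into that row, however, so fragments on it also enter both sides of the ratio. Of the 9 members, 1 passed, Snhg12, and it was higher in Tdrd6-/- (edgeR interaction test, false discovery rate 0.1). Across 16182 genes 1.9% passed, and 0.742% as higher. The median log2 change was 0.37 over the members and 0.06 over all tested genes.

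**Figure D5:**
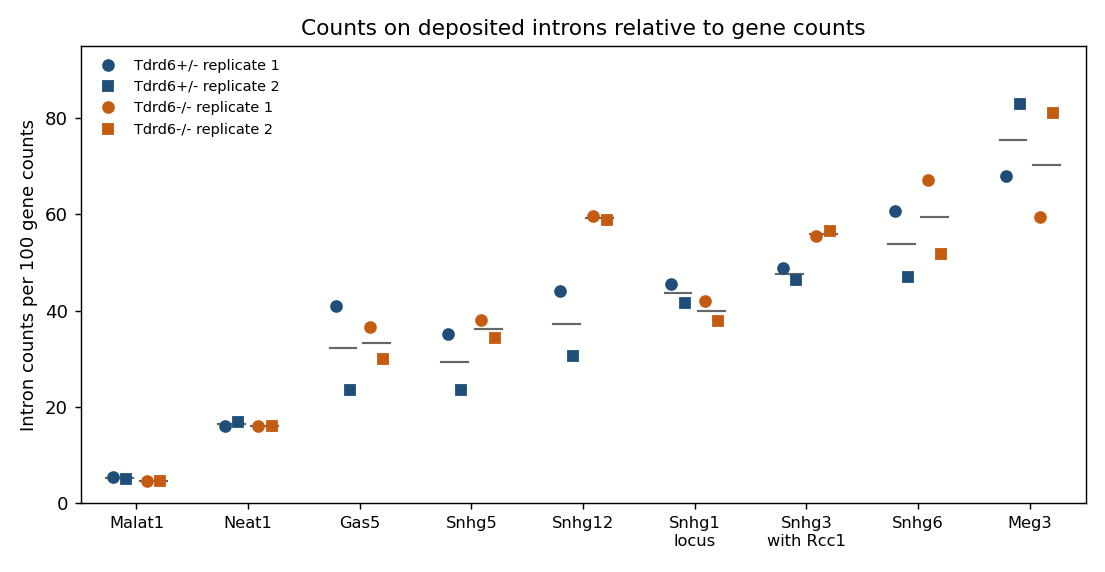
Counts on the deposited introns per 100 gene counts for the 9 member rows and the 4 libraries (circles replicate 1, squares replicate 2; bars are genotype means, n = 2), before scaling. In Snhg12 and in the Snhg3 row both Tdrd6-/- libraries lie above both Tdrd6+/- libraries; in Malat1 and Neat1 they lie below, and in the other 5 rows the genotypes overlap.

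In Snhg12 the intron counts per 100 gene counts were 44.1 and 30.5 in Tdrd6+/- and 59.6 and 58.8 in Tdrd6-/-, with no overlap. They rested on 75, 40, 90 and 97 intron counts beside 170, 131, 151 and 165 gene counts. The log2 change of the ratio was 0.96 ± 0.28 (SE; edgeR adjusted p = 0.0870). The interval of Snora61 had 17 and 14 counts against 25 and 29, that of Snord99 had 8 and 2 against 16 and 13, and that of Snora44 had 15 and 7 against 13 and 12. The interval of the highest counts, intron 001, had 35 and 17 against 36 and 43 and was given no position. The call was lost without Tdrd6+/- replicate 1 (edgeR adjusted p = 0.310), Tdrd6+/- replicate 2 (0.340) or Tdrd6-/- replicate 2 (0.439). It was also lost with a scaling taken from the gene counts (0.462), and DESeq2 gave no adjusted p for Snhg12.

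In the Snhg3 row, the ratio was 48.9 and 46.4 per 100 against 55.5 and 56.5, and its log2 change of 0.53 ± 0.17 (SE) had an edgeR adjusted p of 0.128. The interval that holds Snora73a, intron 003, had 617 and 434 counts in Tdrd6+/- and 764 and 862 in Tdrd6-/-. Fragments on Snora73a are also in the gene count of this row. The higher ratio and the higher share of the Snora73a segments are therefore not independent results. The interval with Snora73b, intron 001, had 402 and 402 against 520 and 513. Neither passed as intron usage (DESeq2 adjusted p = 0.296 for intron 003). Snhg5 gave 35.1 and 23.5 per 100 against 38.1 and 34.3 (log2 0.61 ± 0.22 SE, edgeR adjusted p = 0.196), with overlap. Gas5 gave 41.0 and 23.7 against 36.6 and 29.98 (log2 0.37 ± 0.19 SE, edgeR adjusted p = 0.441), also with overlap. Snhg6, the Snhg1 locus, Neat1, Malat1 and Meg3 had log2 changes of 0.43, 0.17, 0.24, 0.10 and 0.07, with adjusted p from 0.627 to 0.957 (edgeR). Before scaling, the ratios of Malat1 and Neat1 were lower in both Tdrd6-/- libraries, so the sign of their change depends on the scaling. The intron content of the whole libraries overlapped between the genotypes.

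As a level of its own, the summed intron count passed for 0 of the 9 members in the edgeR test, against 1.42% of 15025 genes. Of the members, 2 had an unadjusted p under 0.05 there, Snhg12 and Snhg3 (log2 0.79 ± 0.33 and 0.46 ± 0.21 SE). The intron sums of these 2 include snoRNA intervals. DESeq2 called 0 members too, and without Tdrd6-/- replicate 1 edgeR called both (log2 1.03 and 0.70). Of the 48 member introns, 40 had at least 10 counts and 6 received an adjusted p for their usage, and none passed with DESeq2 or with diffSpliceDGE, where 1.94% of 28903 introns did with DESeq2. Of the fitted introns, 4 had an unadjusted p under 0.05. The Gas5 interval with the highest counts, intron 005 at the printed snoRNA Gm22357, had 57 and 47 counts in Tdrd6+/- and 82 and 68 in Tdrd6-/-. The 8 intervals of the Snhg1 locus summed to 102 and 80 counts against 107 and 101, and intron 008, the highest, had 18 and 27 against 31 and 25. In Snhg5, intron 004 had 50 and 30 counts against 71 and 48, and in Snhg6 intron 002 had 27 and 10 against 33 and 30.

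Other snoRNA genes were read for comparison. Of 15 other noncoding hosts, 9 had a row, 8 could be tested and none passed; Snhg17 and Rian, with the highest counts, gave log2 fold changes of -0.04 and 0.43 (edgeR adjusted p = 0.961 and 0.598). Of 17 protein-coding hosts, 1 passed as lower, nucleolin (Ncl), at 34.7 and 34.6 CPM in Tdrd6+/- and 27.1 and 21.6 in Tdrd6-/- (log2 -0.53 ± 0.17 SE, edgeR adjusted p = 0.0919). The median over these hosts, most of which encode ribosomal proteins or translation factors, was 0.24.

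Of 17 proteins that build snoRNA particles, 2 passed, both lower. Gar1, a core H/ACA protein, was at 8.30 and 9.09 CPM in Tdrd6+/- and 4.23 and 4.36 in Tdrd6-/- (log2 -1.04 ± 0.23 SE, edgeR adjusted p = 0.0122). Naf1, the assembly factor that Gar1 replaces in the mature particle, was at 23.4 and 22.7 CPM against 16.6 and 14.6 (log2 -0.59 ± 0.18 SE, edgeR adjusted p = 0.0778). In both genes the genotypes did not overlap. The other H/ACA genes did not pass, and their values were above 0: the log2 fold changes of Dkc1, Nhp2, Nop10 and Shq1 were 0.27, 0.17, 0.33 and 0.42. The C/D core genes Fbl, Nop56, Nop58 and Snu13 did not pass either, and the median of the list was 0.17.

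Nonsense-mediated decay removes many spliced host transcripts, Gas5 among them. Of its core genes, Smg1, Upf2 and Upf1 were lower in Tdrd6-/-, and none was higher. Smg1, the kinase of the pathway, fell from 829 and 783 CPM to 593 and 474 (log2 -0.62 ± 0.14 SE, edgeR adjusted p = 0.0120). Upf2 changed by -0.56 ± 0.13 (SE; edgeR adjusted p = 0.0209) and Upf1, the central helicase, by -0.54 ± 0.13 (SE; edgeR adjusted p = 0.0214). No snoRNA host among the members passed beside these.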

How the data were processed

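The authors aligned the fragments to mm10 with GSNAP, used Ensembl release 75 and deposited raw counts per gene, exon segment, junction and intron; base calling used bcl2fastq 1.8.4, per the submitters' processing notes, and the counting program is not given in the sources used here. The members and gene lists were chosen with earlier results of these data known. Members were matched by GENCODE M21 symbol to Ensembl IDs. Features were placed by order only where the numbers of segments, junctions and introns all equalled those of M21, and introns of Malat1, Neat1 and Snhg12 by the number of introns alone. Depth (gene and intron counts per library) is given in the report.

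Levels and the ratio (type by genotype interaction, at least 10 counts of each kind) were tested with edgeR 4.0.16 (TMM, quasi-likelihood), and levels were filtered by filterByExpr. Usage followed the DEXSeq and JunctionSeq models, run in R 4.3.3 through DESeq2 1.42.0: a likelihood ratio test set each feature (minimum 10 counts) against the rest of its gene, with independent filtering. The false discovery rate was 0.1. On simulated counts with a log2 change of 1.5 in 200 features, 199 genes, 156 ratios, 198 introns and 198 exon features were recovered. Of the unchanged features, 19 genes, 16 ratios, 7 introns and 20 exon features were also called. The changed features were drawn from those of high counts, with a spread set in advance. The recovery therefore does not speak for smaller changes or for the many member introns and junctions of low counts. Named features were all members, every member feature that passed, and for each member the intron and junction of the highest count and the feature of the smallest adjusted p; from other lists, at most 3 that passed per direction, or 2 of the highest counts. Genes and features named beyond this rule were chosen after their values were seen. Some listed genes are not reported here.

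Alternatives were DESeq2 or edgeR in place of each other, no TMM, other filters and thresholds, joined rows left out, a replicate block and leaving out each library. A crossed block and intron totals as library sizes were added after seeing the data.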

Additional observations from a re-analysis of the deposited data

How the results depend on the processing

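Of the called results, the fall of Snhg3 segment E028 was called under each of the 9 alternatives that fitted its row. Neat1 was called in DESeq2 and in both blocked fits. It was not called with library totals (log2 -0.57, edgeR adjusted p = 0.107), without a filter on low counts (-0.62, 0.426) or with intron totals as library sizes (-0.20, 0.719). The median log2 over all tested genes was 0.09 with library totals and 0.49 with intron totals. The number of members called for gene expression was thus 0 in those 3 fits, and it changed with the library that was left out. Leaving out joined rows removes the Neat1 row and keeps only Snhg6 of the members, so that setting could not keep the call. The members called for the ratio numbered 2 with library totals or at least 50 counts, where the Snhg3 row was also called (log2 0.61 and 0.53), 0 with scaling from the gene counts, with DESeq2 or at a false discovery rate of 0.05, and 0 to 3 without single libraries. For intronic level this was 0 to 2. Member segments and junctions called numbered 2 with edgeR's diffSpliceDGE, 0 with joined rows left out, and 1 to 3 without single libraries.

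Signs turned only among values that did not pass. Under library totals Malat1 gene expression was at 0.038, where the median over all tested genes was 0.09. With intron totals as library sizes, Malat1, Snhg3, Snhg5 and Snhg12 were at 0.38, 0.39, 0.30 and 0.33, all below the median of all tested genes, 0.49. With the ratio scaled from the gene counts, Malat1, Neat1, Snhg1 and Meg3 were at -0.19, -0.043, -0.13 and -0.15, where the median of all genes was -0.23. With intronic level scaled so, Malat1, Snhg1 and Meg3 were at -0.25, -0.048 and -0.16, and the median of all genes was again -0.23. These scalings thus moved all genes and not the members alone. Without single libraries, gene expression ranged from -0.54 to 0.33 for Malat1, -0.0196 to 0.14 for Gas5, -0.058 to 0.26 for Snhg1, -0.22 to 0.0397 for Snhg3, -0.38 to 0.0900 for Snhg12 and -0.76 to 0.57 for Meg3. The ratio ranged from -0.12 to 0.33 for Malat1 and -0.26 to 0.60 for Meg3, and intronic level from -0.20 to 0.21 and -0.16 to 0.37.

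Gene counts of same-numbered libraries deviated from their genotype means with a correlation of -0.10 and intron sums with -0.08, and the labels do not say that a number marks a shared batch. With the replicate block as a term, 1046 genes were called in place of 794, and the block changed no member's call; Meg3 turned to -0.072. With the numbers crossed, a pairing added after seeing the data, 1175 genes, 176 ratios, 82 intronic levels, 255 introns and 352 exon features were called, against 307, 214, 561 and 401 of the last 4 without a block, and Meg3 was at -0.055. Over all genes, 75 were called without a filter and 259 with intron totals as library sizes, and 257 to 1064 without single libraries. Ratio calls numbered 172 at a false discovery rate of 0.05 and 59 to 950 without single libraries. Intronic level had 3 calls with scaling from the gene counts, 396 with DESeq2 and 4 to 951 without single libraries. Intron usage had 2 with diffSpliceDGE, 338 at 0.05, 881 with the block and 4 to 1174 without single libraries, and exon usage had 91 with diffSpliceDGE and 54 to 877 without single libraries. The cause of these changes was not tested. Depth limits the rare junctions and the introns under a mean of 85.5 normalised counts, which received no adjusted p.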

Other observations

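Several small RNA genes of these hosts had rows of their own, and of these only Snora73b was compared between the genotypes above. Snora24, the snoRNA of Snhg8, had 10 and 3 counts in Tdrd6+/- and 6 and 11 in Tdrd6-/-. Snora16a of Snhg12 had 4 and 2 against 5 and 6, and Snord87 of Snhg6 had 0 and 1 against 4 and 1. Snora73b, with 346 and 331 against 406 and 393, was far above these. Snord50a and Snord50b of Snhg5 differ at 1 of 72 positions, so their counts could not be told apart and are not given.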
